A study of Hordeum vulgare with 18 samples.

Results

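Highland barley carried 158 loci annotated as plant defence or pathogenesis-related (PR) proteins among the 32529 loci that had a count in any library. They were chosen by their description alone, which had to name a pathogenesis-related protein, a chitinase, a thaumatin or a glucan endo-1,3-beta-glucosidase. Another 23 loci of the same description had no count in any library, so 181 of the 68630 loci of the table matched in all. By the words of the description the 158 loci fell into 63 glucanases (the PR-2 family), 38 chitinases, 26 PR-1 proteins, 24 thaumatin-like proteins (the PR-5 family), 4 transcriptional activators of PR genes, 1 PR-10 protein and 2 others.

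Highland barley is a hulless barley (Hordeum vulgare) of high altitudes. The study asked how replacing chemical nitrogen with organic fertilizer acts on nitrogen metabolism, and RNA of leaf and root was sequenced at flowering from pots of 3.5 kg of soil. At the 0% rate, called the control here, a pot held urea (357 mg), superphosphate (1545 mg) and potassium sulfate (140 mg) and no organic fertilizer. A pot at the 40% rate held organic fertilizer (1117 mg) with less urea (215 mg), superphosphate (1443 mg) and potassium sulfate (122 mg). A pot at the 100% rate held organic fertilizer (2793 mg) and no urea, with superphosphate at 1289 mg and potassium sulfate at 96 mg. The amounts of nitrogen, phosphorus and potassium were meant to be equal at all rates. Each organ and rate had 3 libraries, 18 in all. The labels name no pathogen, elicitor or cultivar.

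PR proteins are made by plants in response to microbes, to salicylic acid, jasmonate and ethylene, and also in the normal course of root growth, flowering and senescence. Chitinases and glucanases cut the chitin and beta-1,3-glucan of fungal walls, and some glucanases instead cut callose, the plant's own beta-1,3-glucan, at plasmodesmata and in developing walls. PR-1 proteins are small secreted proteins of the CAP family and are the usual marker of salicylic acid signalling, while thaumatin-like proteins can permeabilise fungal membranes.

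The domains listed in the table did not always follow the name. Of the 26 PR-1 loci, 20 carried the CAP domain, 3 a thaumatin domain and 3 the Bet v 1 domain that defines the PR-10 family. All 12 loci named Chitinase CLP carried a xylanase inhibitor domain and no chitinase domain. Xylanase inhibitors block microbial xylanases, and the 12 loci are kept here under the name the table gives. Among the 63 glucanases 31 carried an X8 domain, a module that binds beta-1,3-glucan. The members were partly clustered on the scaffolds, with 39 of the 158 in 14 groups of neighbours within 50 kb. The largest group held 6 chitinase loci on scaffold SDOW01000043.1, and next came 4 PR-1 loci on SDOW01000105.1 and 4 thaumatin-like loci on SDOW01000725.1. Reads of such neighbouring copies may have been split between them by the counting.

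A leaf library held 16.5 to 19 M counts and a root library 13 to 16.9 M. A count of 3, taken as the floor of detection, was worth 0.158 to 0.231 CPM, the counts per 1e6 counts of the library. The 24 loci of chlorophyll a-b binding proteins summed to 40710 to 100400 CPM in leaf and 3.74 to 9.79 CPM in root, so the organs matched their labels, while 3 Casparian strip loci listed as root markers did not separate them. These summed to 2.61 to 5.22 CPM in control leaves, 6.85 to 9.68 CPM in 40% leaves and 41.9 to 56.9 CPM in 100% leaves, against 1.2 to 11.7 CPM in root. The leaf libraries were uneven. The 23 loci of a senescence list summed to 15410, 928 and 14290 CPM in control leaves, to 451, 543 and 597 CPM in 40% leaves and to 5430, 1453 and 1660 CPM in 100% leaves. The 8 loci of the small subunit of rubisco summed to 384, 3543 and 785 CPM in control leaves, against 7467 to 18060 CPM in all other leaf libraries. The part of these differences in the leaf results was not tested. In libraries of whole organs, fewer cells of a type and less RNA per cell cannot be told apart.

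The defence loci were mostly higher in root than in leaf. Of the 158 members 106 had a count in leaf and 154 in root, and 39 had one in all 18 libraries. Root held more loci in general, as 27101 of all 32529 loci with a count had one in leaf and 31051 in root. The mean level per length, in CPM per kb of gene, was higher in leaf for 37 and in root for 121. In CPM, all members together took 845 to 2331 CPM of a leaf library and 4590 to 7176 CPM of a root library. A few loci held much of this, as the 5 most abundant members made up 49.9% of the members' CPM in leaf and 39.6% in root. At the other end, 31 members stayed under 1 CPM in every library, 70 reached 20 CPM in some library and 36 reached 100 CPM.

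**Figure D1:**
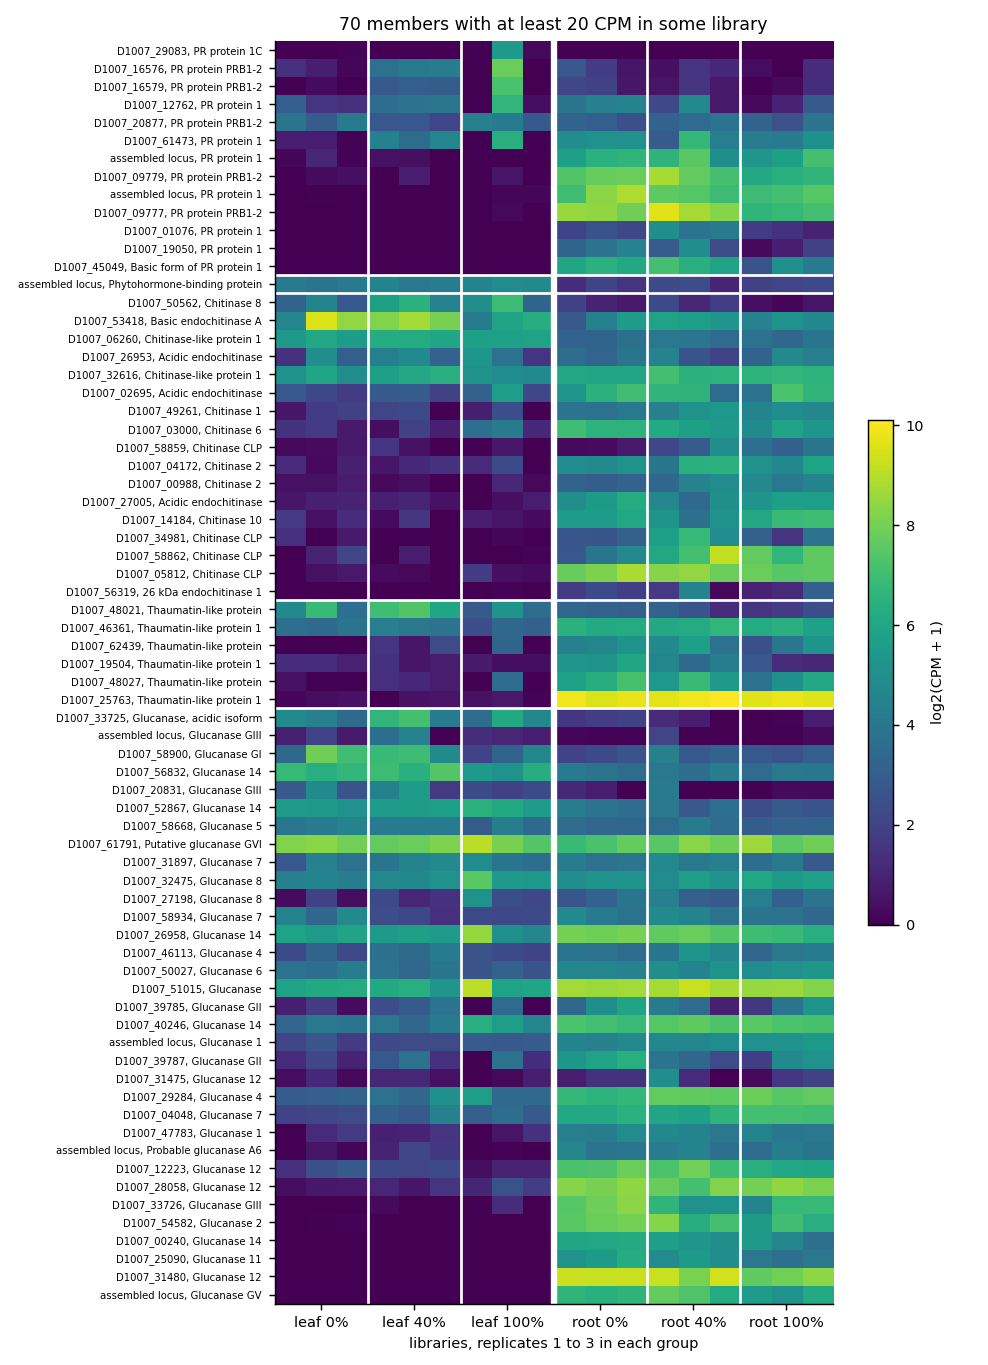
Level of the 70 members that reached 20 CPM in some library (rows, by class, within a class from leaf to root) in the 18 libraries (columns), as log2(CPM + 1). Most rows are dark in the 9 leaf libraries on the left and bright in the 9 root libraries on the right, and single leaf libraries at 100% stand out in the PR-1 rows (replicate 2) and in several glucanase rows (replicate 1).

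At the control rate, 115 members could be tested between the organs, in 1 fit of all 18 libraries with edgeR's quasi-likelihood test. The background was high: of all 24046 genes tested, 25.9% were called higher in leaf and 30.3% lower in leaf at an adjusted p under 0.05. Of the 115 members 16 were called higher in leaf and 61 lower (13.9% and 53%), and the groups did not overlap in 75 of these 77. Overlap was counted for the members alone and not for all called genes, so it adds nothing to the calls. The median log2 change, leaf over root, was -2.8 for the members tested and -0.05 for all genes. Without 1 library at a time, the count of calls ran between 66 and 72.

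Several of the most abundant members of root had almost no RNA in leaf. Thaumatin-like protein 1 (D1007_25763, bases 1701401 to 1704461 of scaffold SDOW01000268.1) was the top member of root by CPM, with at most 0.62 CPM in any leaf library and 756 to 1109 CPM over the 9 root libraries. Its level per length averaged 0.162 CPM per kb in leaf and 468 CPM per kb in root, and its log2 change in control leaf over control root was -11.46 ± 0.72 (SE, n = 3 each, adjusted p = 3.6e-09, edgeR). Glucanase 12 (D1007_31480, bases 3291483 to 3294120 of SDOW01000347.1) had no count in any leaf library and 638, 616 and 639 CPM in control roots. Against the floor of 3 counts per library it was at least 3860-fold lower in control leaf.

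The highest level per length of all members belonged to a PR-1 locus. PRB1-2 (D1007_09777, bases 2360760 to 2361236 of SDOW01000077.1), a basic form of PR-1, averaged 0.0394 CPM per kb in leaf and 661 CPM per kb in root. It had no count in control leaves against 372, 349 and 241 CPM in control roots, at least 1960-fold lower in leaf. A second PRB1-2 locus on the same scaffold (D1007_09779) averaged 0.394 CPM per kb in leaf and 372 CPM per kb in root. Chitinase CLP D1007_05812 averaged 0.285 CPM per kb in leaf and 162 CPM per kb in root, and its control levels were 0, 0.374 and 0.625 CPM in leaf against 219, 277 and 452 CPM in root (log2 change -9.69 ± 0.91 SE, adjusted p = 2.6e-07, edgeR). An assembled locus named PR-1 that carries a Bet v 1 domain (bases 2327441 to 2329854 of SDOW01000977.1) had 1 count over the 3 control leaves, against 127, 328 and 471 CPM in control roots, a ratio of root over leaf of 17100 (95% exact interval 3070 to 677000, counting error only; adjusted p = 1.1e-08, edgeR).

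A smaller group stood higher in leaf. Basic endochitinase A (D1007_53418), a class I chitinase with a chitin-binding domain, averaged 259 CPM per kb in leaf and 34.1 CPM per kb in root and was the leading chitinase of leaf. Its control levels were 23.1, 756 and 354 CPM in leaf and 6.04, 20.9 and 46.6 CPM in root, and they overlapped between the organs, while the test gave a log2 change of 4.12 ± 0.95 (SE, adjusted p = 0.0017, edgeR). Chitinase-like protein 1 (D1007_06260) differed less but more evenly, with 42, 63.8 and 46.9 CPM in control leaves against 7.99, 8.66 and 12.3 CPM in control roots (2.61 ± 0.25 SE, adjusted p = 2.8e-07, edgeR). Its gene model also carries a peroxidase domain, so the counts may not be those of a chitinase alone. The PR-10 member, a phytohormone-binding protein of the Bet v 1 family (an assembled locus at bases 3264352 to 3265476 of SDOW01000428.1), had 16.9, 13.7 and 17.1 CPM in control leaves against 1.45, 3.26 and 1.93 CPM in control roots (3.06 ± 0.38 SE, adjusted p = 5.5e-06, edgeR). Glucanase GI (D1007_58900) was also higher in leaf, at 9.80, 241 and 128 CPM against 3.15, 3.85 and 5.07 CPM in root (5.18 ± 1.01 SE, adjusted p = 0.00041, edgeR).

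Neighbouring glucanases could be opposite in organ. On SDOW01000390.1 the acidic isoform D1007_33725, whose gene model also carries reverse transcriptase-like and zinc knuckle domains, had 27.8, 20.1 and 10.3 CPM in control leaves against 2.08, 2.55 and 2.84 CPM in control roots. The next member on that scaffold, glucanase GIII D1007_33726, had no count in control leaves against 178, 238 and 328 CPM in control roots. Both differences were called by edgeR (adjusted p = 0.0063 for D1007_33725 and 4.5e-06 for D1007_33726).

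In roots at 100% organic nitrogen, the defence loci that moved were mostly lower than in control roots, and PR-1 led them. Of the 105 members tested in root 7 were called higher and 15 lower by edgeR, 6.67% and 14.3%, against 4.69% higher and 5.54% lower among all 21895 genes tested. The groups did not overlap in any of the 22, a share that was not counted over all called genes. The median log2 change was -0.27 for the members tested and -0.00473 for all genes. By class, 1 of 17 PR-1 loci rose and 6 fell, 3 of 21 chitinases rose and 2 fell, 3 of 49 glucanases rose and 5 fell, and 2 of 13 thaumatin-like loci fell. The count of 22 was not firm. It was 9, 16 and 8 without 100% root 1, 2 or 3 and 10, 5 and 10 without control root 1, 2 or 3, and it was 3 in a fit of all 18 libraries, which shares the wider spread of leaf. In that fit 228 of all genes were called higher and 273 lower, against 1027 and 1213 in the main test. Without control root 2 they were 226 and 345. The 23 loci of the senescence list summed to 390 to 428 CPM in 100% roots against 257 to 348 CPM in control roots, and their part in these results was not tested.

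**Figure D2:**
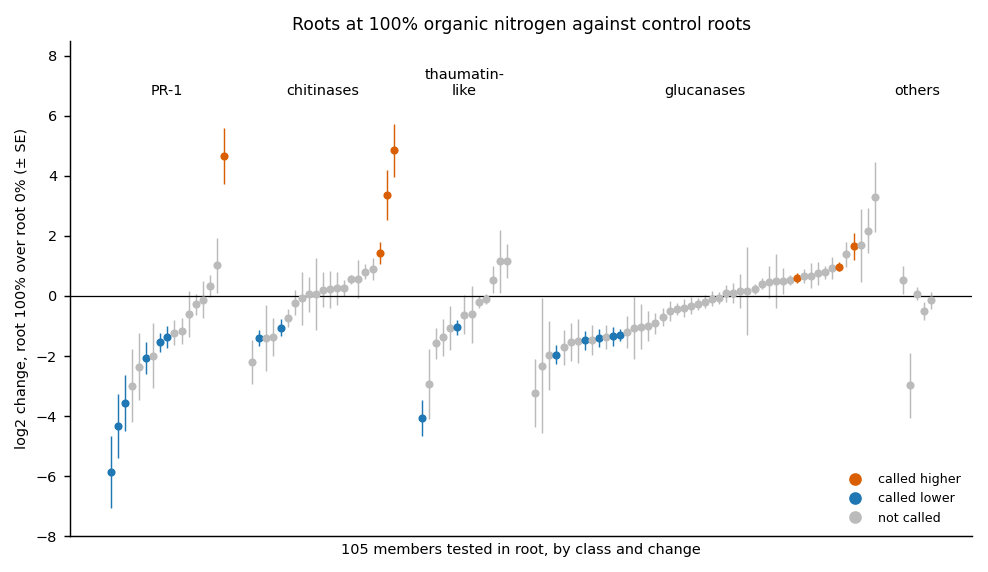
Log2 change of the 105 members tested in root, 100% organic nitrogen over control, with SE derived from the test's F statistic (n = 3 per group), ordered by class and size. The 22 called members are coloured, 7 higher and 15 lower, and 6 of the 7 called PR-1 loci lie below 0.

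The summed levels of the classes in root were as follows. PR-1 loci summed to 367, 450 and 642 CPM in 100% roots, against 862 to 1207 CPM in control roots. Glucanases summed to 2439 to 2462 CPM in 100% roots and 3093 to 3638 CPM in control roots. Neither pair of ranges overlapped. The PR-1 sums include the 3 loci with a Bet v 1 domain, and sums of the CAP loci alone were not made. The largest of these 3 loci held 123, 137 and 176 CPM in 100% roots and 127, 328 and 471 CPM in control roots. Chitinases summed to 827 to 1000 CPM in 100% roots and 630 to 1053 CPM in control roots, and thaumatin-like loci to 919 to 1055 CPM in 100% roots and 994 to 1215 CPM in control roots, so those ranges did overlap.

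**Figure D3:**
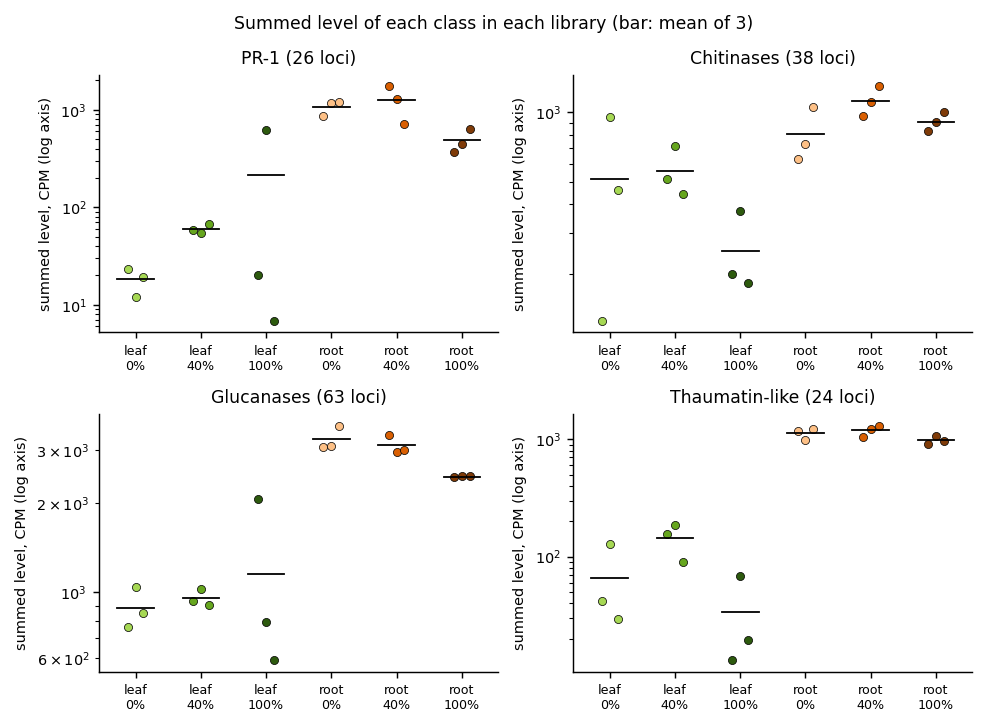
Summed level of the 4 large classes in each library, in CPM on a log axis, for leaf and root at 0, 40 and 100% organic nitrogen; points are libraries and bars the mean of 3. PR-1 and glucanase sums of 100% roots lie under all control roots, and 100% leaves are spread widely for PR-1 (6.89 to 616 CPM) and glucanases (593 to 2062 CPM). The PR-1 sums include 3 loci with a Bet v 1 domain and 3 with a thaumatin domain.

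The 6 PR-1 loci that fell in 100% roots all carried the CAP domain. The most abundant, PRB1-2 D1007_09777, had 96.2, 108 and 136 CPM in 100% roots against 372, 349 and 241 CPM in control roots (log2 change -1.54 ± 0.31 SE, adjusted p = 0.018, edgeR). Its call was lost without control root 1 (0.054), control root 2 (0.07) or 100% root 1 (0.063). The second PRB1-2 locus of its scaffold, D1007_09779, had 67.8, 84.5 and 96.5 CPM against 166, 218 and 227 CPM, a change of -1.36 ± 0.37 (adjusted p = 0.046), and the call was lost in all 6 fits that left out a library (0.069 to 0.13). The basic PR-1 D1007_45049 had 5.13, 32.8 and 17.1 CPM in 100% roots against 63, 87.3 and 69.6 CPM in control roots (-2.06 ± 0.54 SE, adjusted p = 0.04), a call lost in 5 of 6 such fits.

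Scarcer PR-1 loci fell further, and some nearly to zero. PR-1 D1007_19050 had 0.19, 0.823 and 2.85 CPM in 100% roots and 8.56, 13.3 and 21.2 CPM in control roots (log2 change -3.56 ± 0.94 SE, adjusted p = 0.043, edgeR), and the call was lost in all 6 fits without a library. In the PR-1 group on SDOW01000105.1, D1007_12758 had 1 count over the 3 libraries of 100% roots against 81 in control roots, a ratio of control over 100% of 76.4 (95% exact interval 13.3 to 3050, counting error only). Its neighbour D1007_12757 had 2 counts against 48, a ratio of 22.6 (5.93 to 192). Their adjusted p were 0.018 and 0.033, and the calls were lost in 4 and 6 of the 6 fits without a library. The PR-1 locus that rose, PR-1A1 D1007_41235, had 1.14, 0.96 and 4.96 CPM in 100% roots and 0.189, 0.0593 and 0 CPM in control roots (4.67 ± 0.94 SE, adjusted p = 0.017), a call lost without control root 2 (0.084), control root 3 (0.056) or 100% root 3 (0.062).

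Among the thaumatin-like loci, the fall of D1007_19504 was the firmest result in root. Thaumatin-like protein 1 (bases 5074350 to 5076495 of SDOW01000185.1) had 5.63, 1.37 and 1.24 CPM in 100% roots against 37.4, 35.8 and 60.2 CPM in control roots. All 100% roots lay far under all control roots, and the 40% roots, at 23.9, 10.1 and 17.9 CPM, lay between them. The log2 change of 100% over control was -4.05 ± 0.60 (SE, n = 3 each, adjusted p = 0.0054, edgeR), and it stayed under 0.05 in all 13 alternatives run (at most 0.024). D1007_25757, of the same name, fell less, with 6.39, 6.99 and 5.65 CPM in 100% roots against 12.4, 11.9 and 13.8 CPM in control roots (-1.05 ± 0.24 SE, adjusted p = 0.025), and lost its call in 5 of 6 fits without a library. The dominant D1007_25763 did not pass, at 809, 908 and 791 CPM in 100% roots against 941, 756 and 878 CPM in control roots.

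**Figure D4:**
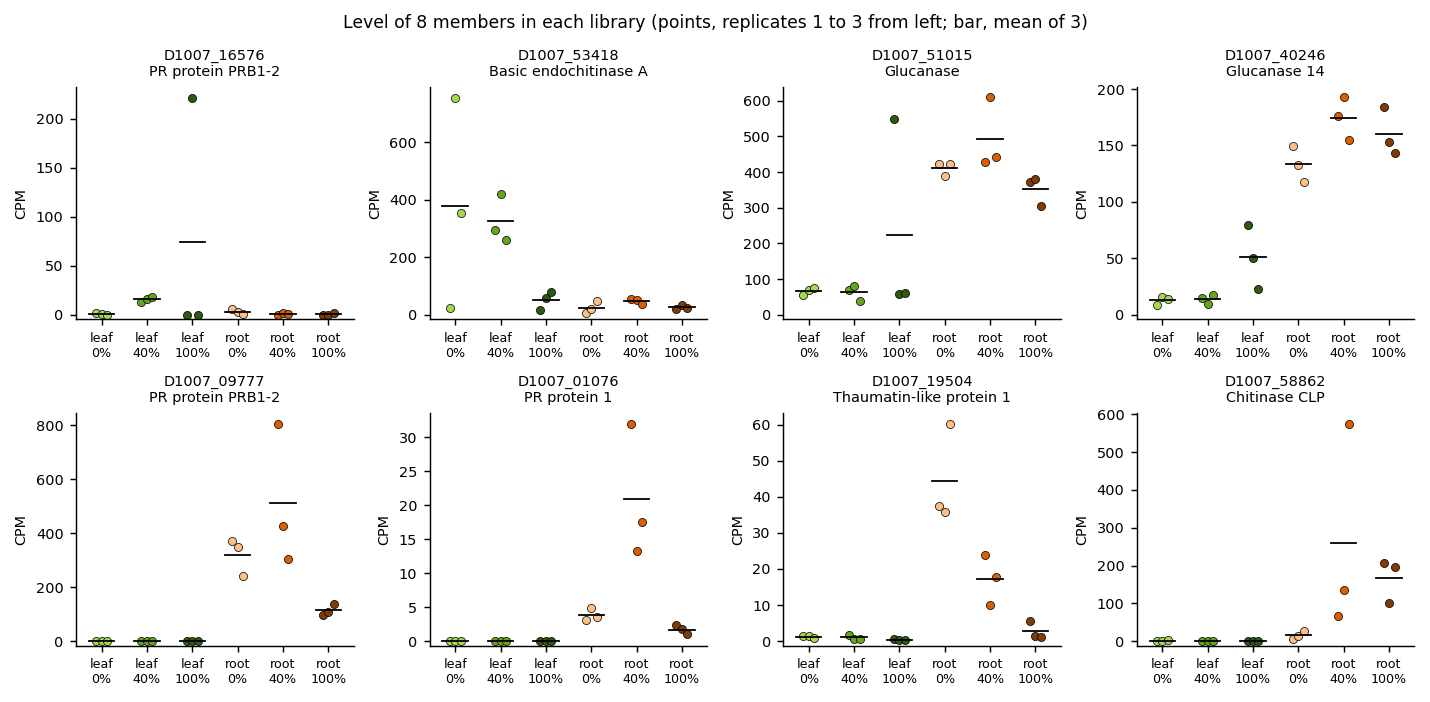
Level of 8 members in each library, in CPM on linear axes, for leaf and root at 0, 40 and 100% organic nitrogen; points are replicates 1 to 3 from left and bars the mean of 3. PRB1-2 D1007_16576 is high in 100% leaf 2 alone (222 CPM), D1007_51015 in 100% leaf 1 (548 CPM), and thaumatin-like D1007_19504 falls to 1.24 to 5.63 CPM in 100% roots.

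The 2 chitinase loci with the largest rise in 100% roots were neighbours and were both named Chitinase CLP, the type with xylanase inhibitor domains. On SDOW01001198.1, D1007_58862 had 207, 99.6 and 196 CPM in 100% roots against 5.66, 14.5 and 26.3 CPM in control roots (log2 change 3.35 ± 0.83 SE, adjusted p = 0.034, edgeR). D1007_58859 had 11.9, 7.68 and 14.2 CPM against 0.189, 0.237 and 0.664 CPM (4.85 ± 0.89 SE, adjusted p = 0.012). The call of D1007_58859 was lost without control root 2 (0.064), and that of D1007_58862 in 5 of 6 fits without a library (0.056 to 0.13). At 40%, D1007_58862 ranged from 65.4 to 574 CPM and did not overlap the control roots, but edgeR did not call it. Such lack of overlap was not counted over all genes.

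Chitinases with a chitinase domain moved in both directions. Chitinase 6 D1007_03000, a class I enzyme with a chitin-binding domain, fell to 27.3, 55.7 and 38.3 CPM in 100% roots, against 127, 90.9 and 91.2 CPM in control roots (-1.39 ± 0.27 SE, adjusted p = 0.014, edgeR), and lost the call without 100% root 3 (0.059). Chitinase 1 D1007_55365 had 2.79, 3.22 and 3.79 CPM against 7.42, 7.06 and 5.37 CPM (-1.06 ± 0.28 SE, adjusted p = 0.043), a call lost in all 6 fits without a library. Chitinase 2 D1007_00988 rose to 26.4, 16.1 and 23 CPM in 100% roots, against 8.43, 7 and 7.97 CPM in control roots (1.44 ± 0.36 SE, adjusted p = 0.036), a call lost in 5 of the 6.

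Among the glucanases of root, glucanase 11 D1007_25090 (bases 2917982 to 2920878 of SDOW01000258.1), which had no count in any leaf, had 15.1, 12.1 and 15.2 CPM in 100% roots against 35.9, 44.6 and 75.4 CPM in control roots (log2 change -1.95 ± 0.33 SE, adjusted p = 0.0089, edgeR). It stayed under 0.05 in all 13 alternatives (at most 0.038). Glucanase 14 D1007_26958 had 123, 113 and 81.7 CPM against 254, 233 and 266 CPM (-1.29 ± 0.20 SE, adjusted p = 0.0069). Glucanase 4 D1007_29284, which carries an X8 domain, rose to 229, 180 and 206 CPM in 100% roots, against 106, 91.6 and 103 CPM in control roots (0.98 ± 0.15 SE, adjusted p = 0.0057). Both kept their calls in all 6 fits without a library and lost them in the fit of all 18 libraries (0.37 and 0.42).

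The other glucanase calls in 100% roots were less stable. The abundant glucanase 12 D1007_31480 had 197, 246 and 340 CPM in 100% roots against 638, 616 and 639 CPM in control roots (-1.34 ± 0.31 SE, adjusted p = 0.028, edgeR). The other falls were those of glucanase 12 D1007_12223 (-1.40 ± 0.30 SE) and glucanase 14 D1007_52867 (-1.48 ± 0.32 SE). The other rises were those of an assembled glucanase 1 at bases 4509136 to 4517373 of SDOW01000269.1 (0.60 ± 0.16 SE) and of D1007_54310, named as a fragment of glucanase GVI (1.65 ± 0.46 SE). Their adjusted p lay between 0.021 and 0.05, and each lost its call in 4 or 5 of the 6 fits without a library. With and without an X8 domain, 1 of 24 and 2 of 25 tested glucanases rose and 2 and 3 fell.

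Roots at 40% organic nitrogen showed few called members. Of the 105 members 4 were called higher than in control roots and none lower, 3.81%, against 0.164% higher and 0.142% lower among all genes tested. The test found 26 members at an unadjusted p under 0.05, a count not made over all genes. The 11 loci of a pollen and anther list summed to 387 to 1061 CPM in 40% roots against 242 to 283 CPM in control roots, and their part in these results was not tested. PR-1 D1007_01076 (bases 609854 to 610356 of SDOW01000009.1) had 31.9, 13.3 and 17.5 CPM in 40% roots against 3.15, 4.92 and 3.56 CPM in control roots (log2 change 2.40 ± 0.39 SE, adjusted p = 0.045, edgeR). The GVI fragment D1007_54310 had 15.8, 8.92 and 10.2 CPM against 1.26, 1.01 and 1.81 CPM (3.05 ± 0.47 SE, adjusted p = 0.042). Glucanase 4 D1007_29284 had 204, 199 and 189 CPM against 106, 91.6 and 103 CPM (0.95 ± 0.15 SE, adjusted p = 0.044). Thaumatin-like protein PWIR2 D1007_61144 had 3.28, 5.21 and 2 CPM against 0.503, 0.296 and 0.181 CPM (3.40 ± 0.54 SE, adjusted p = 0.044). No group overlapped, which was not counted over all called genes, and the calls were thin. None of the 4 was called without control root 1, 2 or 3, without 40% root 2 or with all 18 libraries, and the count of calls was 7 and 2 without 40% root 1 or 3. Over all genes, the calls without control root 1, 2 or 3 were 5, 0 and 0 higher and 16, 0 and 0 lower. They were 10 higher and 2 lower without 40% root 2, and 0 and 1 with all 18, against 36 and 31.

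PR-4A (D1007_08694, a protein of the Barwin family) was a root gene that was not seen at 40%. It had 10.8, 5.4 and 2.84 CPM in control roots, no count in the 3 libraries at 40%, and 0.127, 2.26 and 0.0621 CPM at 100%. No group overlapped the control roots, but edgeR gave an adjusted p of 0.086 for 40% over control and 0.11 for 100% over control. DESeq2 gave 5.73e-06 and 0.04.

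Against 40% roots, 100% roots had 3 members called higher and 13 lower, 2.86% and 12.4%, with 2.4% higher and 2.19% lower among all genes tested. This comparison shares the 100% roots with the one against control and is not independent of it. PR-1 D1007_01076 had 2.34, 1.78 and 0.993 CPM in 100% roots against 31.9, 13.3 and 17.5 CPM in 40% roots (log2 change -3.62 ± 0.42 SE, adjusted p = 0.0042, edgeR). PRB1-2 D1007_09777 had 96.2, 108 and 136 CPM in 100% roots against 804, 427 and 306 CPM in 40% roots (-2.21 ± 0.32 SE, adjusted p = 0.0089). These 2 calls stayed under 0.05 in all 13 alternatives (at most 0.026 and 0.04). Chitinase CLP D1007_34981 had 7.47, 1.92 and 12.8 CPM in 100% roots against 51.4, 108 and 28.9 CPM in 40% roots (-3.12 ± 0.64 SE, adjusted p = 0.031), and chitinase 10 D1007_14184 had 67.6, 114 and 126 CPM against 36.4, 12.4 and 35.9 CPM (1.83 ± 0.38 SE, adjusted p = 0.033). Each of these lost its call in 3 of 6 fits without a library. The count of 16 calls fell to 3 and 6 without 40% root 1 or 2, and to 5, 5 and 2 without 100% root 1, 2 or 3. Over all genes, the calls without 100% root 3 were 108 higher and 101 lower, against 526 and 479.

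In leaf, 71 members passed the filter on low counts, 37 of them glucanases. Of the 71 members 9 were called higher and 4 lower in 100% leaves than in control leaves, 12.7% and 5.63%, against 13% higher and 9.98% lower among all 20032 genes tested, so 18.3% of the members and 22.9% of all genes were called. Of 37 glucanases 7 rose and 4 fell, 1 of 6 PR-1 loci and the PR-10 locus rose, and none of 17 chitinases and 7 thaumatin-like loci was called by edgeR. At an unadjusted p under 0.05 there were 7 chitinases and 2 thaumatin-like loci, and DESeq2 called 5 chitinases higher and 1 lower, and 1 thaumatin-like locus higher. The median log2 change was 0.37 for the members tested and -0.08 for all genes. The count of 13 was 5 without control leaf 3 and between 9 and 19 without any other single leaf of the 2 rates, with 19 reached without 100% leaf 3. Without control leaf 3, 1421 of all genes were called higher and 967 lower, against 2597 and 2000. DESeq2 called 21 members in all, and it called 3406 higher and 2833 lower of all 27101 genes with a count in leaf. Counts at an unadjusted p were not made over all genes. The 3 Casparian strip loci were higher in 100% leaves as well (41.9 to 56.9 CPM, against 2.61 to 5.22 CPM in control leaves), and their part in these results was not tested.

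The glucanases that rose in 100% leaves included 2 that did so in every alternative. Glucanase 8 D1007_20020 (bases 2391146 to 2392624 of SDOW01000189.1, with an X8 domain) had 4.83, 2.14 and 3.78 CPM in 100% leaves against 0.0533, 0.267 and 0.17 CPM in control leaves (log2 change 4.66 ± 0.85 SE, adjusted p = 0.0053, edgeR). Glucanase 14 D1007_40246 (bases 3118160 to 3122610 of SDOW01000515.1) had 79.5, 50.5 and 23.3 CPM against 8.79, 15.8 and 13.8 CPM (2.25 ± 0.44 SE, adjusted p = 0.0068). The lowest 100% leaf lay above the highest control leaf for both. Glucanase 8 D1007_32475 had 184, 41.6 and 41.6 CPM against 20.5, 22.4 and 18.2 CPM (2.39 ± 0.54 SE, adjusted p = 0.014), and lost its call without control leaf 3 (0.059).

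Glucanase 13 D1007_35307 and glucanase 7 D1007_58934 fell in 100% leaves. D1007_35307 (bases 1018471 to 1020590 of SDOW01000419.1) had 0, 0.395 and 0.169 CPM in 100% leaves against 1.97, 9.46 and 11.2 CPM in control leaves, a log2 change of -5.02 ± 0.94 (SE, adjusted p = 0.0059, edgeR), and the call held in all 13 alternatives. D1007_58934 had 3.77, 3.55 and 3.78 CPM against 23, 9.78 and 27.4 CPM (-2.18 ± 0.47 SE, adjusted p = 0.011), and lost its call without control leaf 3 (0.051). At 40% it already stood at 4.18, 3.53 and 1.55 CPM, with an adjusted p of 0.09. The PR-10 locus, the phytohormone-binding protein, rose to 22.8, 28.6 and 26.4 CPM in 100% leaves, against 16.9, 13.7 and 17.1 CPM in control leaves (0.96 ± 0.21 SE, adjusted p = 0.012). It kept its call in all 6 fits without a library and lost it in the fit of all 18 libraries (0.051).

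Single leaf libraries at 100% held high levels of some defence loci that the other replicates lacked. Over all genes the replicates of 100% leaves were also the least alike, with r of 0.958 to 0.972, against at least 0.9747 in the other groups. Of 28 members averaging at least 10 CPM in 100% leaves, 15 differed more than 5-fold between the highest and lowest replicate, with a median ratio of 5.53, against medians of 1.43 to 1.98 in the other 5 groups. A locus can pass this cut through 1 high library alone, as D1007_16576 did, and its large ratio is then given in advance. The share of all genes with such a spread was not counted. In 100% leaf 2 the PR-1 loci summed to 616 CPM, against 6.89 and 20.3 CPM in the other two. PRB1-2 D1007_16576 (bases 1772025 to 1772519 of SDOW01000148.1) had 0, 222 and 0 CPM in 100% leaves, and D1007_16579 on the same scaffold had 0, 147 and 0 CPM. In 100% leaf 1 it was glucanases that stood out, with 548, 57.5 and 61.9 CPM of D1007_51015 and 370, 32.6 and 23.3 CPM of D1007_26958 in 100% leaves 1, 2 and 3.

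The PR-1 call in leaf rested on that 1 library. D1007_16579 was called higher in 100% than in control leaves (log2 change 9.46 ± 2.85 SE, adjusted p = 0.039, edgeR), although 2 of the 3 libraries at 100% had no count and the groups overlapped. Without 100% leaf 2 its change was -3.44, with an adjusted p of 0.3, and the call was also lost without control leaf 1 (0.12), 2 (0.1) or 3 (0.13). The 40% leaves were even. D1007_16576 had 13.2, 16.1 and 17.8 CPM in 40% leaves against 1.54, 0.801 and 0.114 CPM in control leaves, and D1007_16579 had 6.06, 7.06 and 6.87 CPM against 0, 0.214 and 0 CPM. All 40% leaves lay above all control leaves for both loci, but neither passed (adjusted p = 0.34 and 0.26, edgeR).

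No member was called by edgeR in 40% over control leaves, where only 0.00499% of all genes were called higher and 0.00499% lower. At an unadjusted p under 0.05 there were 15 members, a count not made over all genes. DESeq2 called 8 members, and it called 700 higher and 799 lower of all 27101 genes with a count in leaf. PR-1 loci summed to 55.2 to 67.6 CPM in 40% leaves and 11.9 to 23.3 CPM in control leaves, and the ranges did not overlap. Some leading leaf members varied widely among the control leaves. Basic endochitinase A D1007_53418 had 23.1, 756 and 354 CPM in control leaves, 294, 422 and 260 CPM in 40% leaves and 17, 59.2 and 78.9 CPM in 100% leaves, and 100% over control did not pass (adjusted p = 0.076, edgeR). Glucanase GI D1007_58900 and thaumatin-like D1007_48021 were also uneven among the control leaves, at 9.80, 241 and 128 CPM and at 26.2, 114 and 11.9 CPM.

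Against 40% leaves, 100% leaves had 5 members called higher and 4 lower, 7.04% and 5.63%, with 11.1% higher and 7.52% lower among all genes tested. The 100% leaves are those of the comparison with control. D1007_40246 was higher again (23.3 to 79.5 CPM against 9.16 to 17.3 CPM, log2 change 2.14 ± 0.43 SE, adjusted p = 0.01, edgeR). D1007_35307 was lower again (at most 0.395 CPM against 5.34 to 7.69 CPM, -4.86 ± 0.94 SE, adjusted p = 0.0085). Both calls held in all 13 alternatives. PRB1-2 D1007_20877 had 20.3, 16.6 and 6.32 CPM in 100% leaves against 5.76, 5.74 and 3.29 CPM in 40% leaves (1.79 ± 0.50 SE, adjusted p = 0.034), and lost its call in 5 of 6 fits without a library. The count of 9 was 2, 2 and 5 without 40% leaf 1, 2 or 3. Over all genes, 910, 1228 and 1152 were then called higher and 591, 818 and 782 lower, against 2224 and 1506.

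The response to 100% organic nitrogen differed between root and leaf for 16 of 115 members in a direct test of the difference, root change minus leaf change. In 4 of them the difference was above 0 and in 12 below 0 (3.48% and 10.4%), against 7.2% and 8.71% among all 24046 genes tested. In 13 of the 16 the rates did not overlap in at least 1 of the organs, a share that was not counted over all called genes. Glucanase 14 D1007_52867 fell in root, to 4.30, 6.37 and 5.15 CPM at 100%, against 18.6, 13.5 and 11.2 CPM in control roots, and rose in leaf to 86.3, 69.2 and 47.5 CPM, against 47.1, 43 and 33.3 CPM in control leaves. The difference was -2.49 ± 0.41 (SE, n = 3 in each of 4 groups, adjusted p = 0.0014, edgeR). Chitinase 6 D1007_03000, which fell in root, had 11.9, 16.4 and 1.24 CPM in 100% leaves and 1.81, 2.30 and 0.681 CPM in control leaves, a difference of -4.27 ± 1.02 (adjusted p = 0.011). Glucanase 6 D1007_50027 had 29, 33.9 and 40 CPM in 100% roots against 23.9, 23.7 and 21.6 CPM in control roots, while in leaf it fell to 5.18, 8.06 and 5.02 CPM at 100%, against 12.6, 11.7 and 17.8 CPM in control (1.43 ± 0.32 SE, adjusted p = 0.0083). These 3 differences held in all 17 alternatives. The calls within 1 organ were weaker, as without single libraries D1007_52867 lost its call in 4 of 6 fits of root and 2 of 6 of leaf, and D1007_50027 its call in 5 of 6 of leaf.

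**Figure D5:**
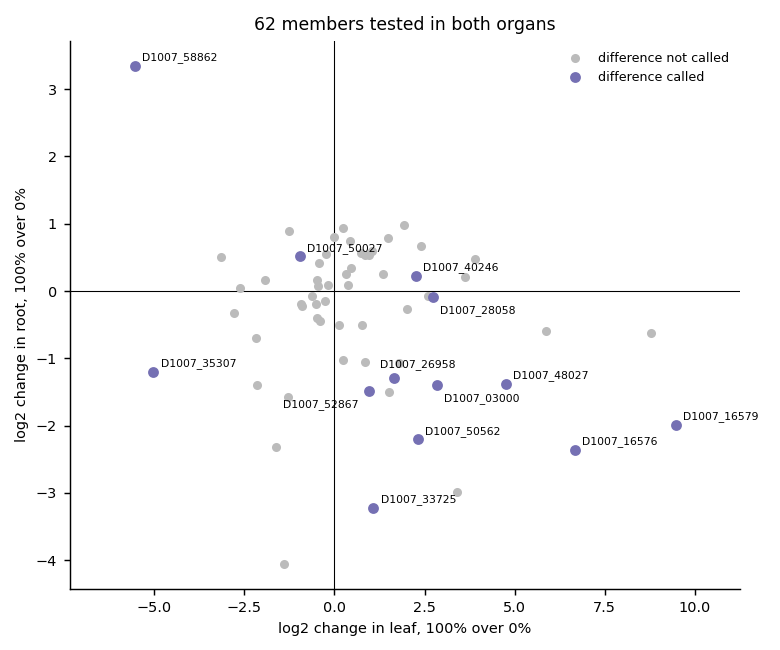
Log2 change at 100% over control in root (vertical) against leaf (horizontal) for the 62 members tested in both organs. The 13 members whose difference between organs was called are coloured and named; D1007_52867 and D1007_03000 lie right of and below 0, and Chitinase CLP D1007_58862 lies at the upper left.

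The difference of Chitinase CLP D1007_58862 was large (8.86 ± 2.18 SE, adjusted p = 0.013, edgeR), with its rise in root set against 0, 0 and 0.0565 CPM in 100% leaves and 0, 0.962 and 3.29 CPM in control leaves, and it was lost without control leaf 3 (0.067). The differences of PRB1-2 D1007_16576 and D1007_16579 and of thaumatin-like D1007_48027 were called too, but turned to 4.49, 1.46 and 3.01 without 100% leaf 2. DESeq2 called 24 members for the difference, and it called 2125 higher and 3287 lower of all 32529 genes with a count. The count of 16 was 10 and 6 without control leaf 1 or 3, 8 and 8 without control root 1 or 2, and 8, 9 and 10 without 100% root 1, 2 or 3. Without control leaf 3, 1135 of all genes were called higher and 1468 lower, against 1732 and 2095.

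Only 2 of the 4 regulators could be tested. Neither was called between rates by edgeR or DESeq2, and neither had an unadjusted p under 0.05 there. PTI5 (D1007_18539) and PTI6 (D1007_25208), ethylene response factors that bind PR gene promoters in tomato, averaged 3.41 and 7 CPM per kb in leaf and 22.8 and 7.30 CPM per kb in root. PTI5 was lower in control leaf than in control root (0.801 to 2.45 CPM against 10.8 to 16.1 CPM, log2 change -2.92 ± 0.63 SE, adjusted p = 0.00093, edgeR). The pathogenesis-related homeodomain protein D1007_37637 had 5.70, 2.79 and 2.69 CPM in 40% leaves against 8.10, 7.91 and 14.4 CPM in control leaves (adjusted p = 0.14, edgeR), and DESeq2 called it lower (log2 change -1.44, adjusted p = 0.0226).

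Other defence genes, listed by words of the description, were counted in 100% roots over control roots, where 4.69% of all genes were called higher and 5.54% lower. Of 30 germins and oxalate oxidases tested 1 rose and 1 fell, of 15 proteinase inhibitors 1 rose and 3 fell, of 12 MLO proteins 2 fell, of 13 benzoxazinoid enzymes 2 fell, and of 214 disease resistance proteins 6 rose and 7 fell. None of 3 barwin or wheatwin loci and none of 4 immune regulators was called by edgeR, with 1 of each at an unadjusted p under 0.05. Of 4 defensins and thionins tested 1 fell, a leaf-specific thionin with 0.0651 ± 0.0634 CPM in 100% roots and 20.5 ± 18.4 CPM in control roots (SD, n = 3 each; adjusted p = 0.024, edgeR). The words first used for that list matched 51 loci with a count, among them methionine and cystathionine enzymes, and were narrowed to 9 loci after the data were seen. In 100% leaves over control leaves, where 13% of all genes were called higher and 9.98% lower, of 10 MLO proteins 2 rose and 1 fell, of 12 benzoxazinoid enzymes 3 rose and 3 fell, of 9 proteinase inhibitors 1 rose, of 4 germins 1 fell and of 165 disease resistance proteins 12 rose and 22 fell. Of the MLO proteins, which are membrane proteins, D1007_37782 rose, with a log2 change of 3.88 ± 0.50 (SE, adjusted p = 0.001, edgeR). D1007_61639 rose less (0.97 ± 0.25 SE, adjusted p = 0.022, edgeR), and D1007_24807 fell (-1.53 ± 0.33 SE, adjusted p = 0.011, edgeR).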

How the data were processed

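Raw read counts per locus were used as deposited by the authors, in 1 table that also lists, per the file headers, each gene length (an other value, in bases). Per the submitters' processing notes the tools were HISAT2 2.0.5 and featureCounts 1.5.0-p3 beside fastp, CASAVA 1.8 and DESeq2 1.20.0. The notes name GRCm38 and mm10, which are mouse builds, but each locus lies on a barley scaffold, whose positions are given. Sources used here do not give the use of strand or of reads with several hits, and 3 members overlap another locus on the opposite strand, among them D1007_04048.

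The test was edgeR 4.0.16's quasi-likelihood test (R 4.3.3, TMM factors, filterByExpr with minimum count 10 and total 15), 2-sided, with Benjamini-Hochberg adjustment across every gene tested and a threshold of 0.05. The 9 libraries of an organ were fitted together (6 residual degrees of freedom, biological coefficient of variation 45.8% in leaf and 27.7% in root); organs and the difference of responses were tested on all 18. A member passes the filter more easily where one group is high, so counts over tested members are not counts over all members. The SE of a log2 change was the absolute change divided by the square root of the test's F statistic. It rests on the spread estimated over the whole fit, not on the libraries of the compared groups alone. Ratios to 1 to 3 counts carry an exact 95% interval and zero counts a floor of 3 per library, both for counting error only.

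The labels do not say that libraries came from separate plants or pots, so a p-value covers the spread among these samples, which may be technical. Same-numbered libraries of 1 organ did not deviate together across rates (r of -0.059 to 0.122 in leaf and -0.163 to 0.165 in root), so no block was used. Whether leaf and root of the same rate and number belong together was not checked, and the tests on all 18 libraries treat them as unpaired. The members, lists and classes were chosen with earlier results of these data known. Named were, per class and comparison, up to 4 called members of smallest adjusted p without overlap (2 for 100% over 40%, organs and the difference), and the 2 highest per length in each organ; other called or uneven members that the text names, such as D1007_51015, were chosen after their values were seen. Alternatives were RLE factors, library size alone, no filter, DESeq2 1.42.0, a replicate block, each library left out, a fit of only the 6 libraries compared and a fit of all 18.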

Additional observations from a re-analysis of the deposited data

Results flagged for a closer look

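In a direct test of the difference between the organs' changes, 13.9% of the 115 members tested were called, against 15.9% of all genes. The change at 100% organic nitrogen over control thus differed between root and leaf for 16 members, a share not above that of all genes. Among them, chitinase 6 D1007_03000 had a root change minus leaf change of -4.27 on the log2 scale, and glucanase 14 D1007_52867 one of -2.49. The difference of glucanase 6 D1007_50027 was 1.43 and that of Chitinase CLP D1007_58862 was 8.86. Leaf levels of D1007_58862 were 0, 0 and 0.0565 CPM at 100%, under the floor of 3 counts. In control leaves they were 0, 0.962 and 3.29 CPM, so the size of its difference is uncertain. The first 3 differences were called in all 17 alternatives and that of D1007_58862 in 16 of 17. The groups had 3 libraries each, so no test for an outlying library was made.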

How the results depend on the processing

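The counts of called members depended on the tool, on the libraries and on which libraries shared the estimate of spread. DESeq2 also called more of all genes than edgeR, such as 1733 higher and 1903 lower in 100% over control roots, against 1027 and 1213. Calls over all genes moved with the libraries too. In 100% over control roots they were 228 higher and 273 lower with all 18 libraries, and 226 and 345 without control root 2. In 100% over control leaves they were 3667 higher and 3729 lower with all 18 libraries, against 2597 and 2000. For 100% over control leaves the count of called members was 13, against 21 with DESeq2, 8 with the 6 compared libraries alone, 26 with all 18 libraries in 1 fit and 5 to 19 without single libraries. For 40% over control leaves it was 0, against 8, 5 (all 18) and 0 to 2. For 100% over 40% leaves it was 9, against 19, 25 (all 18) and 2 to 11. For 100% over control roots it was 22, against 35 with DESeq2, 3 with all 18 libraries and 5 to 16 without single libraries. For 40% over control roots it was 4, against 9 without a filter, 20 with DESeq2, 1 with the 6 libraries alone, 0 with all 18 and 0 to 7. For 100% over 40% roots it was 16, against 26, 2 (6 libraries alone), 3 (all 18) and 2 to 14. For leaf over root in control it was 77, against 66 to 72, and for the difference of responses 16, against 24 with DESeq2 and 6 to 21 without single libraries. A replicate block, for which the correlations within an organ give no ground, moved the counts to 0 for 40% over control roots, 4 for 100% over 40% roots and 10 for the difference of responses. Among the named members' log2 changes that were called by the main test or by the alternative, 7 turned in direction, each without 100% leaf 2. Turns of changes called by neither were not counted. Over the fits without single libraries, D1007_16576 ran from -6.83 to 7.49 over control leaves and from -11.06 to 3.02 over 40% leaves, D1007_16579 from -3.44 to 12.86 and from -9.83 to 3.66, and in the difference of responses D1007_16576 ran from -11.04 to 4.49, D1007_16579 from -14.98 to 1.46 and D1007_48027 from -8.33 to 3.01. The cause was not tested. Scaling by library size alone moved the median of all genes in 100% over control leaves to -0.325, against -0.075. Depth limits what a zero means: 3 counts were worth 0.158 to 0.231 CPM.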
